A study of Danio rerio with 8 samples.

Results

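Signal peptidase, the Sec61 translocon and the translocon-associated protein (TRAP) complex handle proteins that enter the endoplasmic reticulum (ER). Their expression was described through 10 subunit genes in zebrafish primordial germ cells (PGCs), the embryonic precursors of eggs and sperm. The 10 genes were chosen by symbol from the 31200 symbols of the deposited expression table. They are sec11a, spcs1, spcs2 and spcs3 of signal peptidase, sec61b and sec61g of the Sec61 channel, and ssr1, ssr2, ssr3 and ssr4 of TRAP. Each symbol had 1 entry, and all 10 passed the filter on low values, among 13984 genes in all. sec11a was chosen on its high level in the mutant in this same table, so its genotype differences and its stage difference in the mutant are descriptions with no test. The remaining 9 act with sec11a at the same step of secretion.

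Proteins bound for the cell surface or for secretion carry an N-terminal signal peptide, which is read as the ribosome emerges and docked at the ER membrane. The nascent chain passes through the Sec61 channel, TRAP helps some chains to engage and insert, and signal peptidase cuts the signal peptide off on the luminal side. Proteins with a glycosylphosphatidylinositol (GPI) anchor need a second, C-terminal signal as well, which GPI transamidase exchanges for the lipid anchor. pigu, the gene mutated here, codes for a subunit of that transamidase.

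The groups were wild type and pigu-/- germ cells, each at the shield stage, early in gastrulation, and at the bud stage, at its end. Zygotes of both genotypes had been injected with GFP-nanos1-3′UTR mRNA, which keeps GFP in germ cells, and fluorescent cells were picked by hand after the embryos were dissociated. Cells were pooled by the genotype of the somatic cells left from each embryo, so a library is a pool of cells from several embryos. The Tuebingen and India strains are named as the wild type background, and the line Tg(kop:EGFP-nanos 3′UTR) is also listed, but the labels do not tie strain or line to a library or describe the pigu allele. Each of the 4 groups had 2 SMART-seq2 libraries, described as biological replicates. SMART-seq2 amplifies poly(A) RNA from few cells and does not keep the strand. One label speaks of RNA from oocytes, which the other labels do not.

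Values are FPKM, fragment numbers scaled to transcript length and to library size. Because they are scaled to length, levels of different genes are set side by side here, but other biases between transcripts were not assessed. Comparisons between genes are therefore approximate. FPKM carry no read depth, so no counting error can be given. Pairs of values are given for replicate 1 and then replicate 2, and an FPKM of 0 can be a failed estimate. Replicate 1 detected fewer genes than replicate 2 in each group, with 5878 to 11460 genes at FPKM of at least 1 against 12037 to 13007. Mitochondrial transcripts took 30.5% to 72.2% of the total FPKM in the replicate 1 libraries and 17.3% to 23.5% in replicate 2. Germ plasm markers were present throughout, with at least 10 of 13 at FPKM of at least 1 in every library and summed levels of 3688 to 35142 FPKM. The lowest of these sums was that of mutant bud replicate 2, which also had the highest sums of the hatching gland and prechordal plate, enveloping layer, axial mesoderm and neural ectoderm lists. Its sums of the paraxial and lateral mesoderm and yolk syncytial layer lists were not the highest. In libraries of pooled cells, fewer cells of a type and less RNA per cell cannot be told apart. pigu itself had 11.5 and 15.0 FPKM (wild type) and 0.81 and 10.95 FPKM (mutant) at shield, then 2.78 and 14.6 FPKM (wild type) and 0 and 7.32 FPKM (mutant) at bud.

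The 10 genes spanned a wide range of levels. Mean FPKM over the 8 libraries ran from 15.8 for sec11a to 654 for sec61g. sec61b, sec61g, ssr2 and ssr4 formed an upper tier, each at or above the 95.6th percentile of the tested genes in every library. spcs3 was next, with a mean of 152 FPKM and percentiles of 91.5 to 97.6. The means of ssr3, spcs2, ssr1 and spcs1 were 106, 78.8, 30.7 and 27.7 FPKM. The order of the upper 4 genes changed between groups. In wild type shield the order of mean levels was sec61g at 728, sec61b at 565, ssr2 at 523 and ssr4 at 405 FPKM. The libraries of each of these 4 neighbours overlapped with those of the next.

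**Figure D1:**
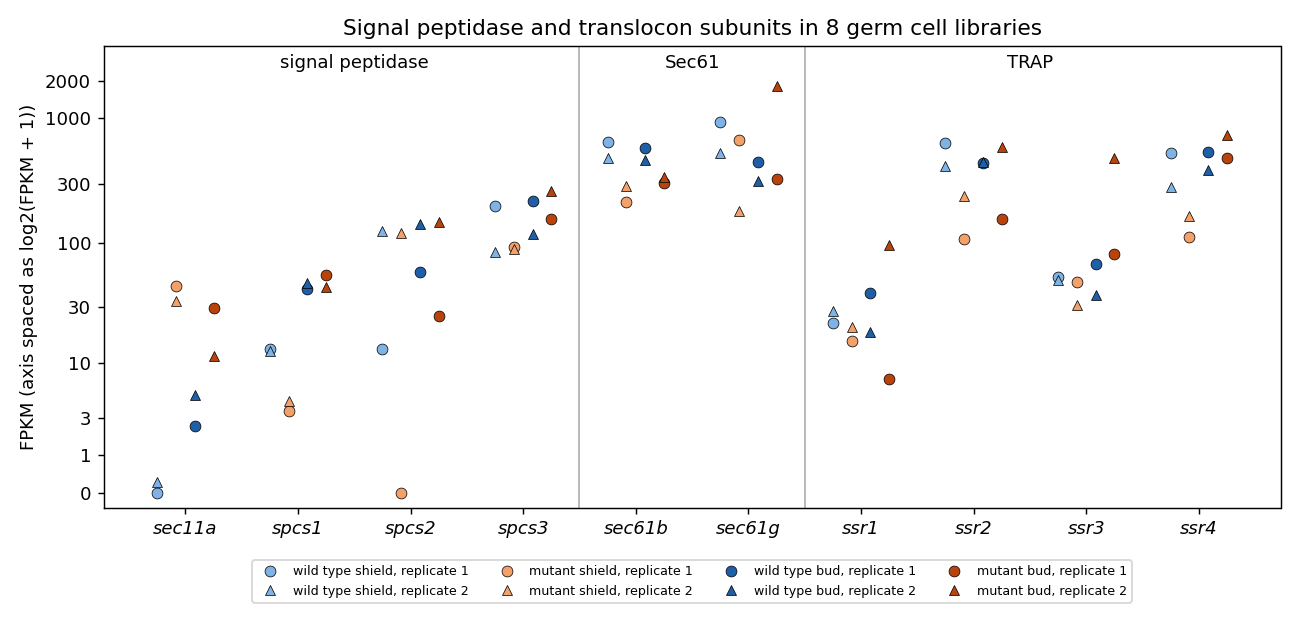
FPKM of the 10 genes in each of the 8 libraries, on an axis spaced as log2(FPKM + 1). Circles are replicate 1 and triangles replicate 2; colours give genotype and stage. The 2 mutant shield values of sec11a, 44.2 and 33.4, lie far above the wild type shield values of 0 and 0.208, while those of spcs1, sec61b, ssr1, ssr2, ssr3 and ssr4 lie below both wild type values.

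sec11a codes for a catalytic subunit of signal peptidase, the serine protease that makes the cut. It was listed at 0 and at 0.208 FPKM in the wild type shield libraries and at 44.2 and 33.4 FPKM in the mutant shield libraries. At bud it had 2.43 and 5.10 FPKM in wild type and 29.2 and 11.5 FPKM in the mutant. All mutant libraries were therefore above all wild type libraries, with the mutant values lower at bud than at shield and the wild type values higher. As percentiles of the tested genes of a library, the wild type values lay between 7.11 and 38 and the mutant values between 60.3 and 93. The mutant minus wild type difference in log2(FPKM + 1) was 5.16 at shield (SE 1.46, n = 2 libraries per group) and 2.09 at bud (SE 1.46), and 3.63 over both stages (SE 1.03). These sizes depend on the pseudocount, since wild type shield is near 0; at shield the difference was 7.78 with a pseudocount of 0.1 and 3.09 with a pseudocount of 5. Both mutant libraries were above both wild type libraries at shield in 4.26% of all tested genes, at bud in 8.19% and at both stages in 0.422%. Those shares give the background of the pattern sec11a was chosen on, and no result is read from it. The reference annotation, matched by name, lists no gene that overlaps sec11a.

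spcs1 codes for a small accessory subunit of signal peptidase. It had 13.2 and 12.7 FPKM in the wild type and 3.50 and 4.46 in the pigu mutant at shield, and 42.0 and 46.9 against 55.1 and 43.9 at bud. The replicates lay close together in each group, both mutant libraries were below both wild type libraries at shield, and the genotypes overlapped at bud. On the log2 scale the mutant differed from wild type by −1.49 at shield (SE 1.15, limma adjusted p = 1) and 0.15 at bud (SE 1.15, limma adjusted p = 1). sec11a stood below spcs1 in both wild type groups and in mutant bud, and above it in mutant shield alone.

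spcs2, a further accessory subunit, varied more between replicates than between groups. It had 13.2 and 125 FPKM (wild type) and 0 and 121 FPKM (mutant) at shield, then 58.0 and 141 FPKM (wild type) and 24.9 and 147 FPKM (mutant) at bud. In each group the library with fewer detected genes had the lower value, and the groups overlapped in both genotype comparisons. On the log2 scale the mutant difference was −1.94 at shield (SE 1.76, limma adjusted p = 1) and −0.57 at bud (SE 1.76, limma adjusted p = 0.993). Without mutant shield replicate 1, in which spcs2 was listed at 0, the shield difference was 1.52.

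spcs3, needed in yeast for the activity of the enzyme, was the most abundant of the 4 in 5 of 8 libraries. It had 197 and 84.7 FPKM in the wild type and 92.8 and 89.3 in the pigu mutant at shield, and 219 and 118 against 156 and 261 at bud. The genotypes overlapped at both stages. The log2 difference was −0.50 at shield (SE 0.82, limma adjusted p = 1) and 0.33 at bud (SE 0.82, limma adjusted p = 0.988).

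Set against spcs1, spcs2 and spcs3, sec11a made up a changing share of the summed FPKM of these signal peptidase genes. Any other gene for a catalytic subunit is not part of this sum and was not looked up. At shield the sum itself was 224 and 223 FPKM in wild type and 140 and 248 in the mutant. At bud it was 321 and 311 in wild type and 265 and 463 in the mutant, so the genotypes overlapped at both stages. At shield, sec11a supplied 0% and 0.0935% of that sum in wild type libraries and 31.4% and 13.5% in mutant libraries. At bud, its share was 0.756% and 1.64% for wild type and 11% and 2.48% for the mutant. The share of spcs1 at shield was 5.9% and 5.69% for wild type and 2.49% and 1.8% for the mutant. These shares are transcript levels and include the values on which sec11a was chosen.

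**Figure D2:**
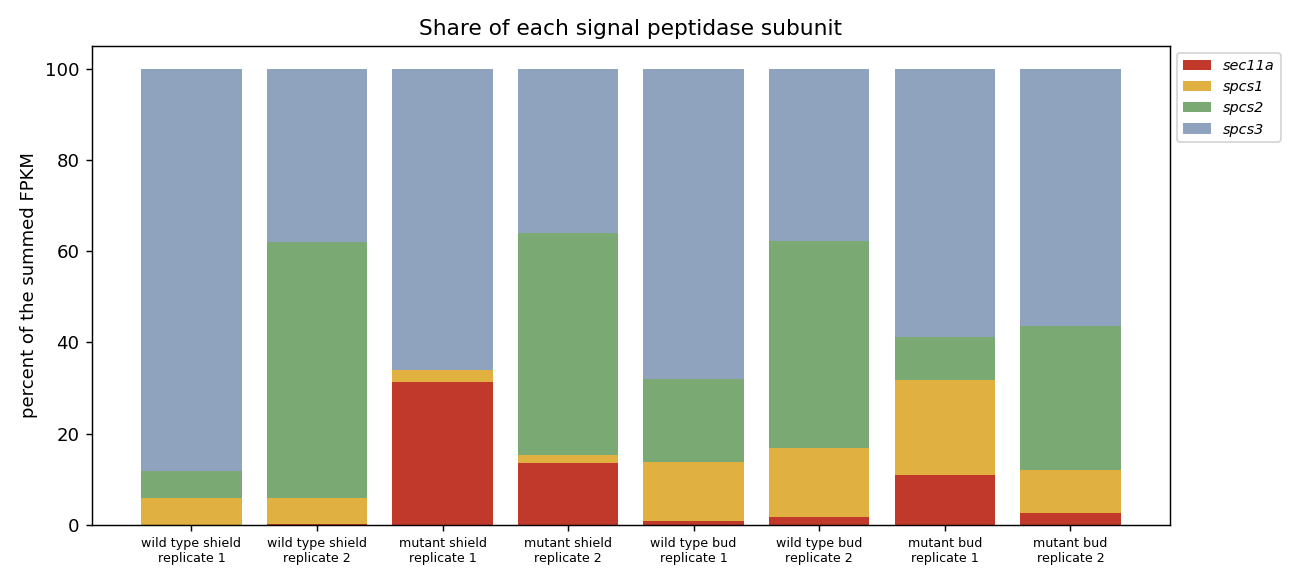
Share of each signal peptidase subunit in the summed FPKM of the 4 genes, 1 bar per library. The sec11a segment is 31.4% and 13.5% of the bar in mutant shield and at most 1.64% in the wild type libraries; the spcs2 segment differs between replicates, from 5.92% to 56.2% in wild type shield.

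The Sec61 channel consists of an alpha subunit that forms the pore and the small beta and gamma subunits, which are coded by sec61b and sec61g. sec61b had 651 and 479 FPKM (wild type) and 214 and 286 FPKM (mutant) at shield, then 583 and 464 FPKM (wild type) and 302 and 339 FPKM (mutant) at bud. It was the only one of the 10 genes with both mutant libraries below both wild type libraries at both stages, a pattern that 4.46% of tested genes showed. On the log2 scale the mutant difference was −1.17 at shield (SE 0.65, limma adjusted p = 1), −0.70 at bud (SE 0.65, limma adjusted p = 0.959) and −0.94 over both stages (SE 0.46, limma adjusted p = 0.983, unadjusted p = 0.0601). It therefore did not pass the test, and the 95% interval over both stages ran from −1.92 to 0.05. sec61b overlaps alg2 in the reference annotation, and reads of overlapping genes cannot be assigned by strand here. alg2 was far lower, at 0 to 28.9 FPKM.

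sec61g, whose yeast counterpart is essential, had 931 and 524 FPKM in the wild type and 669.8 and 182 in the pigu mutant at shield, and 449 and 316 against 325 and 1832 at bud. Mutant bud replicate 2 was 1.97 times the next highest library, and the genotypes overlapped at both stages. The log2 difference was −1.0 at shield (SE 0.85, limma adjusted p = 1) and 1.03 at bud (SE 0.85, limma adjusted p = 0.959). Without mutant bud replicate 2 the bud difference was −0.21. The shield difference was −0.06 without mutant shield replicate 2 and −1.94 without replicate 1. The ratio of sec61g to sec61b was 0.635 to 1.43 in 6 of the libraries, 3.13 in mutant shield replicate 1 and 5.41 in mutant bud replicate 2. sec61a1, which codes for the pore subunit, had 58.3 and 145 FPKM (wild type) and 31.0 and 86.8 FPKM (mutant) at shield, then 71.5 and 108 FPKM (wild type) and 103 and 192 FPKM (mutant) at bud. The level of sec61b was 1.77 to 11.2 times that of sec61a1. sec61a1l, a gene named like sec61a1, had a mean of 58.9 FPKM against 99.4 for sec61a1 and is not part of this ratio.

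TRAP has an alpha, beta, gamma and delta subunit, coded by ssr1, ssr2, ssr3 and ssr4. The 2 genes with the highest levels, ssr2 and ssr4, had the smallest unadjusted p among the 9 tested genes at shield. ssr2 had 632 and 414 FPKM in the wild type and 107 and 236 in the pigu mutant at shield, and 435 and 446 against 157 and 593 at bud. Its mutant libraries were below the wild type libraries at shield and on either side of them at bud. On the log2 scale the mutant difference was −1.68 at shield (SE 0.78, unadjusted p = 0.0472, limma adjusted p = 1) and −0.53 at bud (SE 0.78, limma adjusted p = 0.972).

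ssr4 had 528 and 283 FPKM (wild type) and 111 and 166 FPKM (mutant) at shield, then 542 and 388 FPKM (wild type) and 485 and 743 FPKM (mutant) at bud. Again the mutant libraries were below at shield and overlapped the wild type at bud. The log2 difference was −1.51 at shield (SE 0.69, unadjusted p = 0.0461, limma adjusted p = 1) and 0.39 at bud (SE 0.69, limma adjusted p = 0.978), or 0.08 at bud without mutant bud replicate 2. The interaction, the bud difference minus the shield difference, was 1.89 (SE 0.98, limma adjusted p = 1).

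ssr3 had 52.4 and 49.3 FPKM in the wild type and 47.8 and 30.8 in the pigu mutant at shield, and 66.9 and 37.5 against 81.4 and 481 at bud. It was the only one of the 10 genes whose mutant libraries were both below wild type at shield and both above it at bud, which 0.715% of tested genes were. The gap at shield was small, and mutant bud replicate 2 was 5.9 times the next library. On the log2 scale the mutant difference was −0.40 at shield (SE 1.01, limma adjusted p = 1) and 1.96 at bud (SE 1.01, limma adjusted p = 0.959), with an interaction of 2.36 (SE 1.43, limma adjusted p = 1). Without mutant bud replicate 2 the bud difference was 0.69 and the interaction 1.08. The highest values under any alternative processing or omission of libraries were 3.24 at bud and 3.63 for the interaction. The shield difference was −0.05 with median-of-ratios scaling.

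ssr1 had 22.1 and 27.6 FPKM (wild type) and 15.3 and 20.3 FPKM (mutant) at shield, then 39.2 and 18.4 FPKM (wild type) and 7.14 and 95.6 FPKM (mutant) at bud. The mutant bud libraries were the lowest and the highest of all 8. The log2 difference was −0.46 at shield (SE 1.28, limma adjusted p = 1) and 0.01 at bud (SE 1.28, limma adjusted p = 1). Without mutant bud replicate 2 the bud difference was −1.78. Summed over its 4 genes, TRAP had 1235 and 773 FPKM in the wild type and 281 and 453 in the pigu mutant at shield, and 1084 and 889 against 731 and 1912 at bud.

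Seen as a group at shield, the 9 genes other than sec11a were all lower in the mutant by their group means on the log scale, with a median log2 difference of −1.17. Of all tested genes 63.5% were lower, and their median was −0.30. No member and no gene of the table passed the limma test at an adjusted p under 0.05, so percent called was 0% of 13984 genes; 201 genes, 1.44%, and 2 of the 9 members had an unadjusted p under 0.05. Both mutant libraries were below both wild type libraries for 6 of the 10 members, spcs1, sec61b, ssr1, ssr2, ssr3 and ssr4, and for 12.2% of all tested genes. Among the 4731 genes with a mean FPKM of at least that of sec11a, the lowest of the 10, the share was 13.8%. That cut, 15.8 FPKM, includes the mutant values on which sec11a was chosen. The means of the 6 genes were 27.7 to 415 FPKM, so this background is not matched to their levels. The same limit holds where the cut is used below. Mutant shield replicate 1 had the fewest detected genes of all libraries, and without it the median was −0.96 over the 9 members, 8 of them lower, and 0.49 over all genes. With quantile normalization the medians were −0.80 and 0.05, and with median-of-ratios scaling −0.82 and −0.15. The part of detection and mitochondrial share in these differences was not tested.

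At bud the same 9 genes had no common direction. By group means 6 were higher and 3 lower in the mutant, with a median of 0.15 against −0.51 over all genes, 66.5% of which were lower. The limma test called 0% of genes, and 677 genes, 4.84%, had an unadjusted p under 0.05, with none of the 9 members among them. Among the 9, both mutant libraries were above both wild type libraries for ssr3 alone. That pattern was shown by 8.19% of all genes and by 12.3% of genes with a mean FPKM of at least that of sec11a. sec11a had it too, but was chosen on its mutant level and is not set against these shares. Both mutant libraries were below both wild type libraries for sec61b alone, against 28.9% of all genes. Over both stages together 2 of the 9 were higher and 7 lower, with a median of −0.56 against −0.42 for all genes. The test again called 0%, and 597 genes, 4.27%, with no member among the 9, had an unadjusted p under 0.05.

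**Figure D3:**
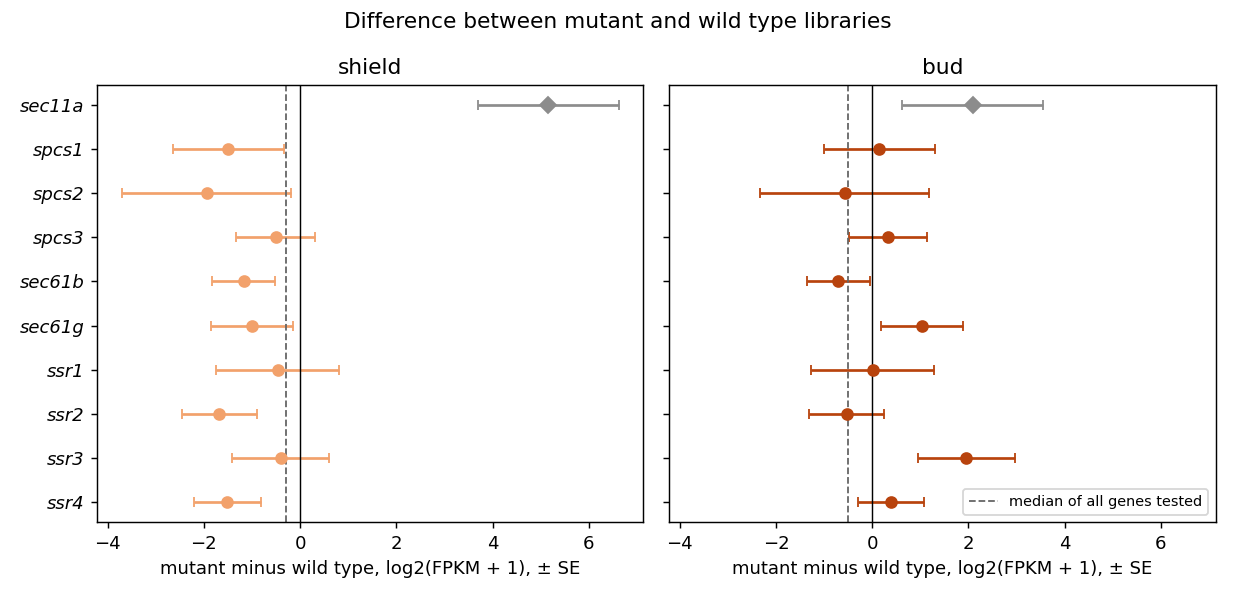
Mutant minus wild type difference in log2(FPKM + 1) at shield (left) and bud (right), with bars of 1 SE from the limma fit of 2 libraries per group. The dashed line is the median of all tested genes, −0.30 at shield and −0.51 at bud. The 9 genes other than sec11a, which is grey because it was not tested, lie below 0 at shield and on both sides of 0 at bud.

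Mutant bud replicate 2 had the highest value of sec61g, ssr1, ssr3, ssr4, spcs2 and spcs3 of any library, and it also stood apart in some lists of somatic markers. The summed level of the 8 hatching gland and prechordal plate markers, genes of secretory and organizer tissue, was 1208 FPKM there and 82 to 225 FPKM in the other 7 libraries. 7 of these 8 markers were at FPKM of at least 1 in that library, against 1 to 4 in the others. The hatching enzyme genes he1.1 and he1.2 had 145 and 66.2 FPKM there and were listed at 0 elsewhere. xbp1, a transcription factor of secretory cells that is also among the 8 markers, had 469 FPKM there and 80.0 to 209 in the others. In those other libraries it made up most of the summed level, with 80.0 of 82 FPKM in mutant shield replicate 1. The 13 enveloping layer markers summed to 1103 FPKM in mutant bud replicate 2, 827 in mutant shield replicate 1 and 162 to 376 in the rest. The neural ectoderm markers summed to 1096 FPKM in mutant bud replicate 2 and to 38.9 to 241 in the others. For axial mesoderm, mutant bud replicate 2 had 560 FPKM, near the 499 of wild type shield replicate 2. It was not highest for paraxial and lateral mesoderm, with 503 against 574 in mutant shield replicate 2. Nor was it for the yolk syncytial layer, with 52.2 against 132 in mutant bud replicate 1. The part of these transcripts in the levels of the 10 genes was not tested. Without mutant bud replicate 2, 6 of the 9 genes were lower in the mutant at bud, with a median of −0.21 against −0.90 over all genes. Without mutant bud replicate 1 the median of the 9 was 0.69 against −0.20 over all genes.

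**Figure D4:**
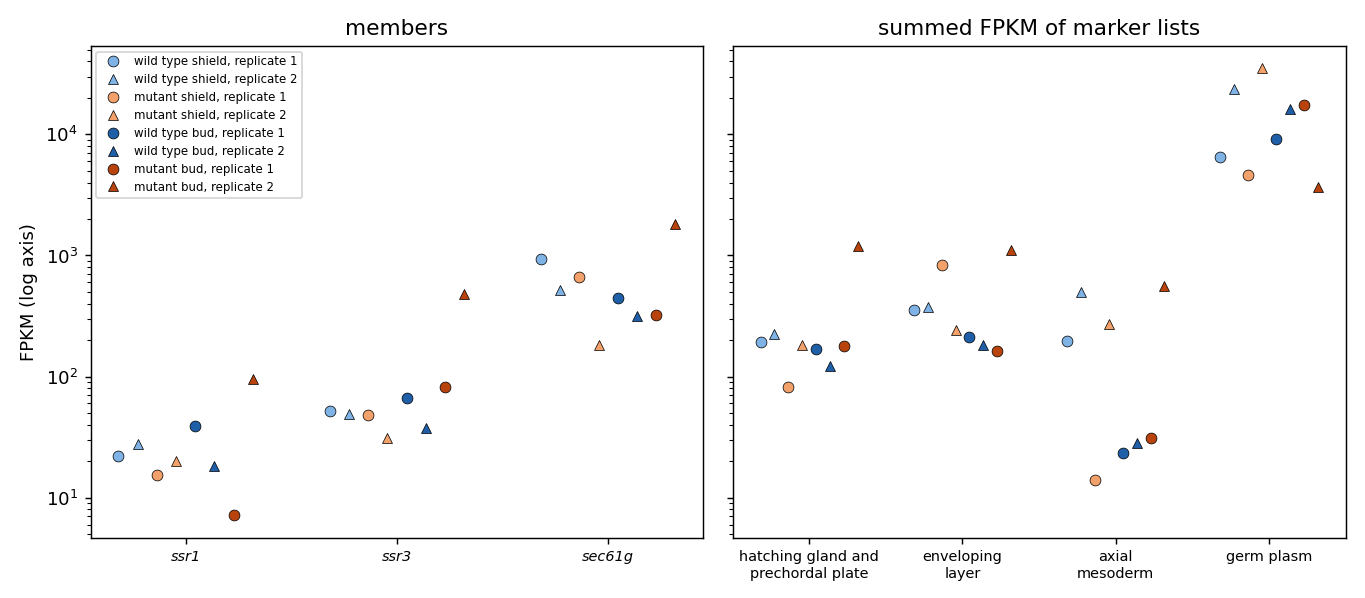
FPKM of ssr1, ssr3 and sec61g (left) and summed FPKM of 4 marker lists (right) in each library, on a log axis. Mutant bud replicate 2 is highest for the 3 genes and for the hatching gland and prechordal plate (1208), enveloping layer (1103) and axial mesoderm (560) lists, and lowest for germ plasm (3688).

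Between stages, spcs1 was the member whose libraries were most clearly apart. All 4 bud libraries, at 42.0 to 55.1 FPKM, were above all 4 shield libraries, at 3.50 to 13.2 FPKM. No other member showed this, and 5.48% of all tested genes did; bud was above shield within both genotypes, taken one by one, in 7.45%. The bud minus shield difference in log2(FPKM + 1) was 1.70 in wild type (SE 1.15, limma adjusted p = 1) and 3.34 in the mutant (SE 1.15, unadjusted p = 0.0106, limma adjusted p = 0.681). It did not pass the test in either genotype.

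In wild type, both bud libraries were above both shield libraries for sec11a and spcs1, against 29.1% of all genes. sec61g was below, against 9.89%. The stage difference was 2.06 for sec11a (SE 1.46, limma adjusted p = 1; 0.76 with a pseudocount of 5 and 4.37 with 0.1) and −0.89 for sec61g (SE 0.85, limma adjusted p = 1). Of the other 9 members 5 were higher and 4 lower at bud, with a median of 0.12, while 68.5% of all genes were higher with a median of 0.51. That member median was −0.34 with median-of-ratios scaling and −0.27 with quantile normalization. The test called 0% of genes, and 467 genes, 3.34%, and none of these 9 members had an unadjusted p under 0.05.

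In the mutant, both bud libraries were above both shield libraries for spcs1, spcs3, sec61b, ssr3 and ssr4, 5 of the 10 members, against 14.7% of all genes and 23.6% of genes with a mean FPKM of at least that of sec11a. sec11a was the one member below, a pattern of 8.77% of all genes. It was chosen on these mutant values, so no result is read from that pattern. Its difference was −1.02 (SE 1.46), given with no test. Without mutant bud replicate 2 it was −0.39, and without replicate 1 it was −1.66. The difference was 2.14 for ssr4 (SE 0.69, unadjusted p = 0.00738, limma adjusted p = 0.681), 2.34 for ssr3 (SE 1.01, unadjusted p = 0.0348, limma adjusted p = 0.731) and 1.14 for spcs3 (SE 0.82, limma adjusted p = 0.766). That of ssr3 was 1.06 without mutant bud replicate 2 and 3.61 without replicate 1, and that of spcs3 was 0.47 and 0.46 under median-of-ratios and quantile scaling. By group means the 9 members other than sec11a were all higher at bud, with a median of 1.14 against 0.25 over all genes, 56.4% of which were higher. Without mutant bud replicate 2, 6 of the 9 were higher, with a median of 0.77, and without mutant bud replicate 1 the median was 2.39. Median-of-ratios scaling left 7 higher with a median of 0.47, and quantile normalization 8 with a median of 0.46. The test called 0%; 928 genes, 6.64%, and 3 of the 9 members, spcs1, ssr3 and ssr4, had an unadjusted p under 0.05. The mutant shield libraries enter both this comparison and the genotype comparison at shield, so the 2 are not separate evidence. The interaction of genotype and stage called 0% as well, with 199 genes, 1.42%, and no tested member at an unadjusted p under 0.05, and its median was 1.37 over the 9 and −0.16 over all genes. The median over the 9 was 0.46 without mutant bud replicate 2 and 2.2 without mutant bud replicate 1.

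The rest of the route into the ER was described through 7 lists with 57 tested genes. None of the 57 passed the limma test in any of the 6 comparisons. At shield 48 of the 57 were lower and 9 higher in the mutant, while 63.5% of all genes were lower. The medians were −0.82 for the 57 and −0.30 over all genes. Lower genes numbered 5 of 8 for the signal recognition particle and its receptor, which bring ribosomes to the membrane. They numbered 13 of 14 for the list of other translocon subunits, which also holds genes of other proteins, such as the chaperone gene hspa5. They numbered 10 of 11 for oligosaccharyltransferase, which adds N-glycans to the incoming chain. For the signal peptide peptidase family, whose member hm13 degrades cut signal peptides, they numbered 2 of 3. The counts were 8 of 10 for the ER membrane protein complex and 6 of 6 for the GET pathway, both of which insert membrane proteins, and 4 of 5 for GPI transamidase. Both mutant libraries were below both wild type libraries at shield for 19 of the 57, 33.3%, against 12.2% of all genes, and above for none, against 4.26%. Mutant shield replicate 1 listed 13 of the 57 at 0 and mutant bud replicate 1 listed 15 at 0, against at most 3 in the other libraries. Among all tested genes, those at 0 shared a tied rank at percentiles of 26.7 and 24.8 in these libraries. That rank is the middle of the tied genes and not their share. The shares of all tested genes at 0 were larger than these percentiles and than the shares of the 57. Listings at 0 were thus common there and not particular to the route. At bud 21 of the 57 were higher and 36 lower, while 66.5% of all genes were lower. The medians were −0.30 for the 57 and −0.51 over all genes.

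The gene with the highest mean level of each list gave a view of single values. srprb, a subunit of the receptor for the signal recognition particle, had 307 and 237 FPKM (wild type) and 47.4 and 173 FPKM (mutant) at shield, then 152 and 172 FPKM (wild type) and 245 and 305 FPKM (mutant) at bud. Like ssr3, its mutant libraries were below wild type at shield and above at bud. Of the 57 genes this held for 2, srprb and tmco1, a share of 3.51% against 0.715% of all genes. tmem258, an oligosaccharyltransferase subunit, had 721 and 279 FPKM in the wild type and 251 and 226 in the pigu mutant at shield, and 266 and 181 against 205 and 404 at bud. hspa5, the luminal chaperone BiP that helps pull chains through the channel, had 111 and 339 FPKM (wild type) and 43.9 and 173 FPKM (mutant) at shield, then 151 and 192 FPKM (wild type) and 148 and 177 FPKM (mutant) at bud. It overlapped between genotypes at both stages.

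hm13, the signal peptide peptidase, had 93.5 and 119 FPKM in the wild type and 8.17 and 79.8 in the pigu mutant at shield, and 67.4 and 74.4 against 0 and 201 at bud. get4, of the GET pathway, had 36.1 and 75.8, 14.6 and 77.8, 67.2 and 97.1, and 26.5 and 65.9 FPKM in the same order of groups. pigs, of GPI transamidase, had 9.87 and 20.9, 4.09 and 9.96, 6.26 and 14.7, and 0 and 24.4 FPKM. In each of these 3 genes mutant bud replicate 1 was below both wild type bud libraries, and replicate 2 was above replicate 1. emc4, of the ER membrane protein complex, had wild type levels of 20.2 and 4.11 FPKM at shield and 13.0 and 633 FPKM at bud. In the mutant it had 13.6 FPKM in bud replicate 2 and was listed at 0 in the other 3 libraries.

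None of the 57 genes had all mutant libraries above wild type within both stages, as sec11a did. This is near the 0.422% of all genes, so no contrast with sec11a is read from it. 4 had them below within both stages, as sec61b did: srp54, tmem147, camlg and pigk, a share of 7.02% against 4.46% of all genes. srp54, the subunit that binds the signal peptide, had 115 and 125 FPKM (wild type) and 25.0 and 92.8 FPKM (mutant) at shield, then 136 and 124 FPKM (wild type) and 99.0 and 78.4 FPKM (mutant) at bud. For all 4 bud libraries above all 4 shield libraries, 3 of the 57 matched spcs1, namely get1, ccdc47 and sppl2, a share of 5.26% that is near the 5.48% of all genes. get1, a receptor subunit of the GET pathway, had 2.75 and 7.35 FPKM in the wild type and 0 and 2.76 in the pigu mutant at shield, and 37.35 and 42.6 against 74.9 and 39.8 at bud. These genes were named after their values were seen.

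**Figure D5:**
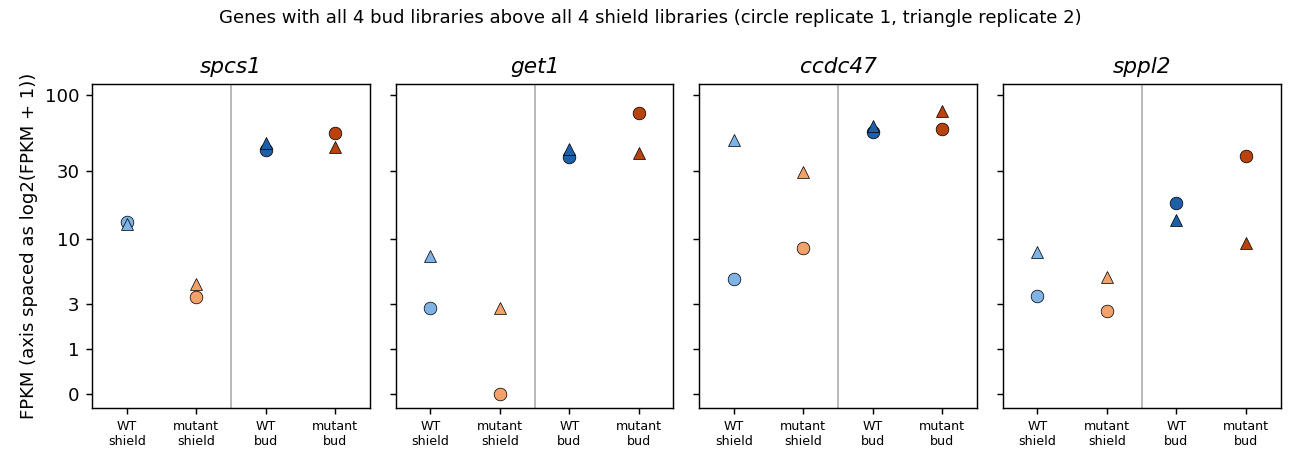
FPKM of spcs1 and of get1, ccdc47 and sppl2, on an axis spaced as log2(FPKM + 1), by genotype and stage with 2 libraries each. In all 4 genes the lowest bud library is above the highest shield library; for spcs1 the bud libraries have 42.0 to 55.1 FPKM and the shield libraries 3.50 to 13.2, and for sppl2 the gap is 7.96 to 9.27.

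Among the 10 genes themselves, Pearson's r of log2 values over the 8 libraries ranged from −0.92 to 0.86, as a description of 8 libraries that also differed in how many genes they detected. sec11a and sec61b had the −0.92, and the highest values were 0.86 for spcs1 with ssr4 and for spcs3 with ssr4. sec61b and ssr2 had 0.82. sec11a had −0.21, −0.30 and −0.22 with spcs1, spcs2 and spcs3, its partners in the enzyme. Each r of sec11a, that with sec61b included, rests on the mutant values on which sec11a was chosen. No result is read from these r values.

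The 5 genes most like sec11a, by the same r among 7230 named genes with a mean FPKM of at least 5, were nlrc3 at 0.91, uqcc3 and atp5if1a at 0.89, kctd6a at 0.85 and rfc5 at 0.81. No member of the 3 complexes was among them, but with so few members among 7230 candidates no result is read from that. nlrc3, of a large family of similar genes in zebrafish whose reads may be shared, was listed at 0 in all 4 wild type libraries and had mutant levels of 26.2 and 30.7 FPKM at shield and 18 and 2.21 FPKM at bud. atp5if1a, which codes for an inhibitor of the mitochondrial ATP synthase, had 30.1 and 29.8 FPKM (wild type) and 221 and 286 FPKM (mutant) at shield, then 90.1 and 77.2 FPKM (wild type) and 436 and 524 FPKM (mutant) at bud. uqcc3, an assembly factor of respiratory complex III, had 1.07 and 1.41 FPKM in the wild type and 6.30 and 9.34 in the pigu mutant at shield, and 5.78 and 4.28 against 11.1 and 7.41 at bud. Unlike sec11a, atp5if1a had both mutant bud libraries above both mutant shield libraries, while the mutant libraries of uqcc3 overlapped between stages. The 5 genes were picked for their likeness to sec11a, so their genotype differences are descriptions.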

How the data were processed

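Per the labels, poly(A) RNA of pooled germ cells was amplified by SMART-seq2 and sequenced in pairs. The authors deposited 1 table of FPKM for the 8 libraries; the submitters' processing notes give danRer11 as the build and Cufflinks 2.2.1, STAR 2.5.3a and Trim Galore as tools. The annotation and the treatment of multiply mapped reads are not given in the sources used here. The read depth behind the FPKM is unknown.

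Of 31934 entries for 31200 symbols, 2 with missing values were left out, and for 545 symbols with several entries that of highest mean was kept. The 13984 genes that reached FPKM of 1 in 2 or more libraries were analysed as log2(FPKM + 1). limma-trend (limma 3.58.1, R 4.3.3) was fitted to the 4 group means and 6 comparisons were drawn, with 4 residual degrees of freedom, 15.4 after moderation. P-values are two-sided and adjusted by Benjamini-Hochberg over all genes; the threshold was 0.05. The fit was tested on simulated data with less spread than these libraries. That does not show how many true differences it would find here. Plots used Python 3.11.15 and matplotlib 3.10.9.

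The 10 genes and the lists were chosen with earlier results of these data known; sec61a1l was added to its list by name once the table had been seen. Named genes were the 10, the highest of each other list, up to 3 called genes per list and the 5 most like sec11a; others were chosen after their values were seen. Overlapping genes were looked up by name in RefSeq (assembly GRCz12tu), where spcs2, sec61b, sec61g and ssr1 overlap another gene; these levels are less certain, and no coordinates or sequences are given. P-values measure the spread between the labelled biological replicates. Alternatives changed the pseudocount, filter, scaling, merging of entries, replicate block and libraries included.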

Additional observations from a re-analysis of the deposited data

Results flagged for a closer look

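In ssr3 both mutant libraries lay below both wild type libraries at shield, with a log2 difference of −0.40, and above both at bud, with 1.96. The test of that difference, the interaction of 2.36 (SE 1.43), had a limma adjusted p of 1. With mutant bud replicate 2 left out, the difference at bud was 0.69 and the interaction 1.08. The highest values under any alternative were 3.24 at bud and 3.63 for the interaction.

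In sec11a both bud libraries lay above both shield libraries in wild type, with a log2 difference of 2.06, and below both in the mutant, with −1.02. The difference between these was not tested, because sec11a was chosen on its mutant level. For the same reason no stage pattern is read from its mutant values. The mutant difference was −0.39 without mutant bud replicate 2 and −1.66 without replicate 1. The wild type difference was 0.76 with a pseudocount of 5 and 4.37 with a pseudocount of 0.1.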

How the results depend on the processing

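Under the 17 alternatives, no tested difference of the 10 genes passed the limma test. The genotype differences of sec11a and its stage difference in the mutant are given as descriptions and left out of that statement. The number of genes called in the whole table, 0 in each comparison as reported, became 1 over both stages with a filter of FPKM of at least 5 and 1 with the replicate block. For stage in the mutant it became 3 with that filter, 8 with median-of-ratios scaling, 7 with quantile normalization and 5 with the replicate block, and for the interaction 1 with the replicate block. Leaving out 1 library at a time, stage in the mutant had 0 to 146 calls, the 146 without mutant shield replicate 2. Replicate numbers were not shown to pair the samples: the correlations of same-numbered deviations from the group means were −0.01 to 0.33.

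Of the 9 genes other than sec11a, those lower at bud numbered 2 to 6 with 1 library left out, the 6 without mutant bud replicate 2, and 6 also when that library and mutant shield replicate 1 were left out together. Without these 2 libraries the difference was 1.52 for spcs2 at shield and, at bud, −0.04 for spcs3, −0.21 for sec61g and −1.78 for ssr1. A pseudocount of 0.1 gave −0.03 for ssr1 at bud. With 1 library left out, the shield differences spanned −5.41 to 1.52 for spcs2, −1.11 to 0.10 for spcs3 and −1.94 to −0.06 for sec61g. The bud differences spanned −0.01 to 0.31 for spcs1, −1.83 to 0.69 for spcs2, −0.12 to 0.77 for spcs3, −0.21 to 2.28 for sec61g, −1.78 to 1.79 for ssr1 and −1.48 to 0.43 for ssr2. A lone library left in a group was assumed to vary like the other groups. For sec11a over both stages, pseudocounts of 0.1 and 5 gave 5.06 and 2.27. FPKM carry no counts, so the limit that depth sets on the lowest values is unknown.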
